A study of Mus musculus with 2 samples.

Results

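The insulin-like growth factor (IGF) family was followed through single-cell RNA sequencing of the whole spinal cord of mice at postnatal day 4. Its 10 members were taken by gene symbol from the 32285 genes of the count tables: the ligands Igf1 and Igf2, the receptors Igf1r and Igf2r, and the binding proteins Igfbp2, Igfbp3, Igfbp4, Igfbp5, Igfbp6 and Igfbp7. One 10x Genomics library, labelled SMA, came from FVB mice of genotype mSmn-/-, hSMN22tg/0, a severe Taiwanese model of spinal muscular atrophy. The other, labelled Con, came from mSmn+/-, hSMN22tg/0 littermates, so that both groups carried the human SMN2 transgene and both lacked at least 1 mouse Smn allele. Spinal cords of several littermates were pooled before trypsin and collagenase digestion, and each group is 1 library. The comparison asks in which cells of the cord the IGF system is expressed and where the library labelled SMA differs from the library labelled Con. With 1 library a group there is no replicate and no test. Levels are unique molecular identifiers (UMIs, counts of captured transcripts) summed over the cells of a class and given as counts per 1000000 UMIs of that class (CPM). All intervals are 95% intervals that cover counting error only.

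IGF1 and IGF2 are secreted growth factors that signal through the receptor tyrosine kinase IGF1R. IGF2R, the mannose 6-phosphate receptor, binds IGF2 and carries it to lysosomes, and so removes it. The binding proteins hold the ligands in the extracellular space, prolong or block their action, and release them when proteases cut them. IGF1 supports the survival of motor neurons and the growth of oligodendrocytes, and the meninges and blood vessels are known sources of IGF2 in the nervous system.

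Values come from 6787 SMA cells with a median of 6109 UMIs and 8920 Con cells with a median of 6229. Barcodes of the library labelled SMA that are also listed in the library labelled Con, 8163 in all, were left out, while 6557 of the 8920 Con cells (73.5%) have a barcode that both libraries list. The 4 Y-linked genes Ddx3y, Eif2s3y, Kdm5d and Uty together stood at 168 CPM in SMA and 74.7 in Con, outside the erythroid-like class, and Xist at 1.66 and 629, so the sexes of the pools differ and cannot be told apart from the genotype. Smn1, the deleted gene, stood at 52.0 CPM in SMA and at 51.5 in Con, so the targeted gene does not set the libraries apart. A count of its transcripts does not show whether they hold the deleted part, and the labels are used as given. Clusters were named from marker genes, and 11 classes had at least 50 cells in each library. Neurons did not reach that number, with 43 cells in SMA and 26 in Con.

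The members lie on 7 chromosomes of the GRCm38 assembly. Igf2 (chr7:142650766-142666816, minus strand) and Igf1r (chr7:67952827-68233668, plus strand) share chromosome 7, and Igfbp3 (chr11:7206086-7213923, minus strand) and Igfbp4 (chr11:99041244-99054392, plus strand) share chromosome 11. Igfbp2 (chr1:72824503-72852474, plus strand) and Igfbp5 (chr1:72857932-72874884, minus strand) are neighbours whose 3′ ends face each other across 5457 bases. Igf1 (chr10:87858265-87937042, plus strand), Igf2r (chr17:12682406-12769664, minus strand), Igfbp6 (chr15:102144362-102149511, plus strand) and Igfbp7 (chr5:77349240-77408041, minus strand) stand alone. Annotated antisense transcripts overlap Igf1, Igf2, Igf2r and Igfbp7, and reads of such a partner could be told apart only if the counting used strand. Igf2 and Igfbp7 each also overlap another protein-coding gene.

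The 250 bases before a RefSeq start (build GRCm38.p6) are shown for 4 members that carried the differences described here, 5′ to 3′ along the gene: Igf2 and Igfbp2, which are high in the same fibroblast-like sub-clusters, Igfbp5, the neighbour of Igfbp2 with another distribution, and Igfbp7 of the vessel wall. Capitals mark GGGCGG (GC box) on either strand.
Igf2, chr7:142657497-142657746, minus strand: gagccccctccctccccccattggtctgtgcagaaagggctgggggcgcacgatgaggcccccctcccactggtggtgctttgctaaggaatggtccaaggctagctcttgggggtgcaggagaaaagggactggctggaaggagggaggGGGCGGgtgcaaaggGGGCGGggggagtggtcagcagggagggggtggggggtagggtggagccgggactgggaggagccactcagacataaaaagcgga
Igfbp2, chr1:72824230-72824479, plus strand: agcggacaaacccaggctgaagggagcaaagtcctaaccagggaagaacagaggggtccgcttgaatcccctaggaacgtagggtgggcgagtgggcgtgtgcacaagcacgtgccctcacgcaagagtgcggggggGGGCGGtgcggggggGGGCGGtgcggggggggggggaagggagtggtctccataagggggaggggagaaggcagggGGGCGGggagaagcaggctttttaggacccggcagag
Igfbp5, chr1:72874866-72875115, minus strand: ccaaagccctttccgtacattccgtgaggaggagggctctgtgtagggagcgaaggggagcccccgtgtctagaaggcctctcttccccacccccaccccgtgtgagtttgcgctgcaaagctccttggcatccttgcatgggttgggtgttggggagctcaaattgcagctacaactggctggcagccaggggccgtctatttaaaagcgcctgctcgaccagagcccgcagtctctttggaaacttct
Igfbp7, chr5:77408046-77408295, minus strand: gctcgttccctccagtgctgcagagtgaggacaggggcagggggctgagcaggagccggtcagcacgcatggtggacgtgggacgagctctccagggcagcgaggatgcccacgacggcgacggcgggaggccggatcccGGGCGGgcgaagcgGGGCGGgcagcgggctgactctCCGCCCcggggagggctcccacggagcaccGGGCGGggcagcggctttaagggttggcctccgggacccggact
For Igf2, which has 4 windows, the window shown is the one that the largest number of GENCODE protein-coding 5′ ends falls near. GGGCGG occurred 2 times in that Igf2 window, 3 times in the Igfbp2 window, 4 times in the Igfbp7 window and not in the Igfbp5 window. It occurred in 32.7% of 32817 RefSeq windows of this length, and TATAAA on either strand in 12.4%. None of the 4 windows shown holds TATAAA. All 10 members had at least 1 window.

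For each of the 10 members the same class held the highest level of the 11 classes in both libraries. In fibroblast-like cells these were Igf1, Igf2, Igfbp2, Igfbp3, Igfbp4 and Igfbp6. Endothelial-like cells held the highest level of Igf1r and Igfbp7, mural-like cells (pericytes and smooth muscle of vessels) that of Igf2r, and ependymal-like cells (the ciliated lining of the central canal) that of Igfbp5. The heat map of the 11 classes shows this order. For Igfbp3 and Igfbp5 the top class in Con depends on 429 fibroblast-like Con cells without an SMA counterpart, described below. Without them, Con fibroblast-like cells stood at 26.9 CPM for Igfbp3, below oligodendrocyte precursor-like (52.1) and endothelial-like cells (41.0). For Igfbp5 they stood at 532, above ependymal-like cells (408).

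**Figure D1:**
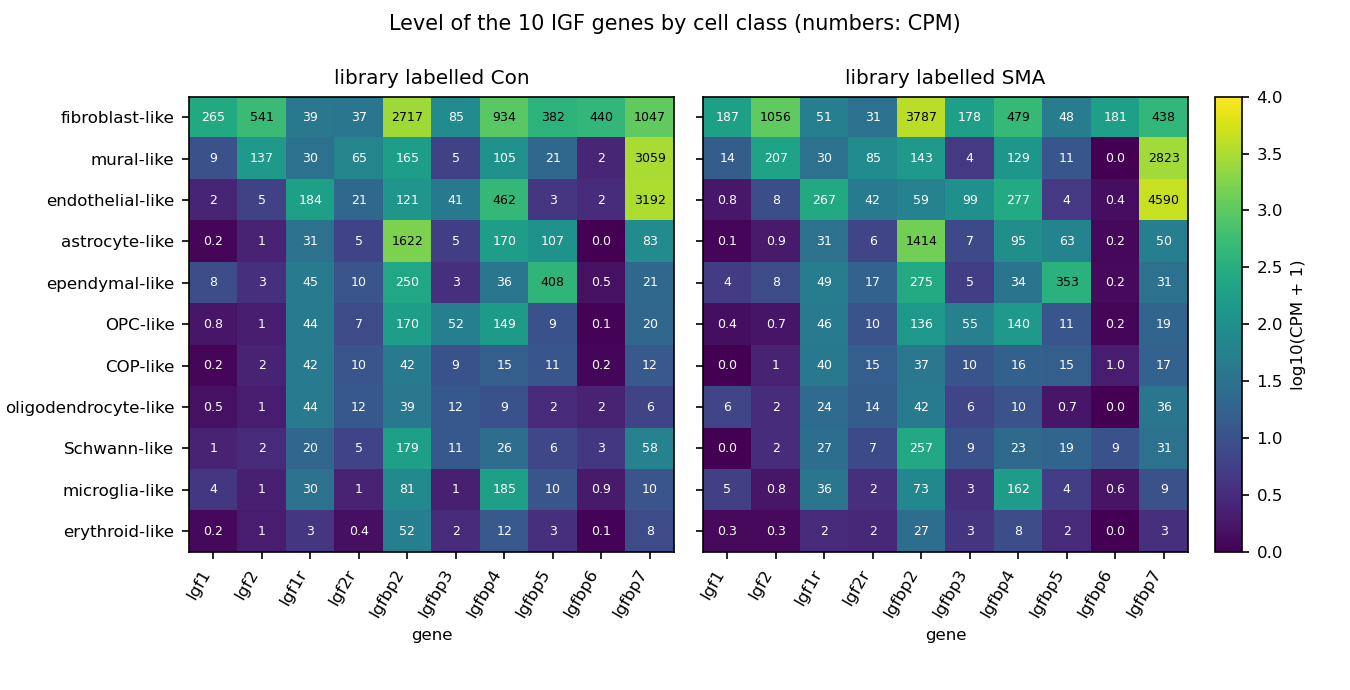
Level of each IGF gene (columns) in each cell class (rows) of the library labelled Con (left) and the library labelled SMA (right); colour is log10 of CPM plus 1, and each number is CPM. Igf1, Igf2 and Igfbp6 are almost limited to the fibroblast-like row, with Igf2 also at 137 and 207 in the mural-like row.

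Igf1, the ligand of the growth hormone axis that is also made locally in tissues, stood at 265 CPM in fibroblast-like cells of Con (739 UMIs, 600 cells) and 187 in SMA (109 UMIs, 63 cells). The next class, mural-like cells, stood at 8.87 in Con and 14.2 in SMA, below fibroblast-like cells beyond counting error in both libraries. Microglia-like cells, often named as a source of IGF1 in the postnatal brain, held 23 UMIs in 880 Con cells and 38 UMIs in 1078 SMA cells, or 3.52 and 4.80 CPM. Their ratio, a log2 of 0.45, has an interval of -0.33 to 1.26 that spans 0. Within microglia-like cells, a sub-cluster led by Spp1, Lpl and Cst7 held Igf1 at 11.2 in Con and 13.8 in SMA, and one led by Ms4a7 and Cybb held 1 UMI in Con and 11 UMIs in SMA. In the classes with under 50 cells in a library, Igf1 stood at 73.7 CPM in the 60 macrophage-like cells of Con and 16.4 in the 30 of SMA. It stood at 89.8 in the 293 monocyte-like cells of Con. The 30 of SMA held 0 UMIs, where the floor of 3 counts is 13.01 CPM. The monocyte-like Con cells had a median of 1520 UMIs and a median mitochondrial share of 2.68%, against 5142.5 and 5.23% in SMA. Only 10.6% of them have a barcode that both libraries list, and the part of these differences in the Igf1 contrast was not tested.

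Igf2, the imprinted growth factor of fetal tissues, was high in 2 classes, fibroblast-like and mural-like cells. Fibroblast-like cells stood at 541 CPM in Con and 1056 in SMA, and mural-like cells at 137 in Con (248 UMIs) and 207 in SMA (117 UMIs). Every other compared class stood at or below 8.11 in both libraries. The mural-like difference was a log2 ratio of 0.59 (0.26 to 0.92). Shares of cells were compared after thinning each cell to 1000 UMIs, as the value expected over all draws, which left out 0 to 42 shallower cells per class and library. With this, 18.1% of mural-like SMA cells and 13.4% of mural-like Con cells held a UMI of Igf2 (52.1% and 46.2% before thinning), against 0.02% and 0.20% of erythroid-like cells, a class that should lack it. Their intervals, 11.02% to 27.6% for SMA and 9.41% to 18.0% for Con, overlap.

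Igf1r, the signalling receptor, was found in every class. Endothelial-like cells led at 184 CPM in Con (678 UMIs, 453 cells) and 267 in SMA (658 UMIs, 327 cells). In Con, the next 5 classes (ependymal-like, OPC-like, oligodendrocyte-like, COP-like and fibroblast-like) ran from 45.1 to 39.4 and neighbours in that order did not differ beyond counting error. OPC are oligodendrocyte precursors and COP are committed oligodendrocyte precursors. In SMA the classes from fibroblast-like (51.3) down to oligodendrocyte-like (24.5) formed such a run as well. Erythroid-like cells were lowest, at 3.31 in Con and 2.09 in SMA.

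Igf2r, the receptor that clears IGF2, was highest in the same classes and in endothelial-like cells. Mural-like cells stood at 65.4 CPM in Con and 85.0 in SMA, fibroblast-like cells at 36.5 and 30.8, and endothelial-like cells at 21.2 and 42.2. Microglia-like cells stood at 1.38 and 2.40, near the erythroid-like 0.44 and 1.83. The mural-like class was thus high for both Igf2 and its clearing receptor.

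Igfbp2, a binding protein of the developing brain and its coverings, had a level above 1000 in 2 classes. Fibroblast-like cells stood at 2717 CPM in Con and 3787 in SMA, and astrocyte-like cells at 1622 in Con (17650 UMIs, 1675 cells) and 1414 in SMA (12164 UMIs, 1362 cells). Ependymal-like cells followed at 250 and 275. After thinning to 1000 UMIs, 70.6% of astrocyte-like Con cells and 65.3% of SMA cells held a UMI (92.4% and 89.2% before), against 5.53% and 3.08% of erythroid-like cells. Igfbp2 was the member with the highest erythroid-like level, 52.4 in Con and 26.9 in SMA. COP-like (41.5 and 37.5) and oligodendrocyte-like cells (39.0 and 41.5) stood below that level in Con and above it in SMA.

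Igfbp5, its chromosomal neighbour and a binder of extracellular matrix, had another order. Ependymal-like cells stood at 408 CPM in Con (788 UMIs) and 353 in SMA (1451 UMIs), and fibroblast-like cells at 382 and 47.9. In Con these classes did not differ beyond counting error. Astrocyte-like cells stood at 107 and 63.0, and endothelial-like cells at 3.26 and 3.65. Within ependymal-like and within astrocyte-like cells, 1 cluster carried most of it. An ependymal-like cluster led by Ecrg4 and Rbp4 stood at 763 in Con and 714 in SMA, and the cluster led by ciliary genes such as Rsph1 and Tmem212 at 122 and 128. Among astrocyte-like cells, the cluster led by Gfap stood at 287 and 228, and the largest cluster, led by Slc7a10 and Cldn10, at 43.3 and 32.3. Igfbp2 ran the other way among the same astrocyte-like clusters, at 640 (Con) and 697 (SMA) in the Gfap cluster and 2181 (Con) and 1681 (SMA) in the largest. The members were left out of the genes that built these clusters. With 1 library a group there is no test, so the contrasts are descriptions.

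Igfbp3, the main carrier of IGFs in blood, was expressed in fibroblast-like, endothelial-like and OPC-like cells. OPC-like cells held it at 52.1 CPM in Con (538 UMIs) and 54.5 in SMA (635 UMIs), and COP-like cells, the next stage of the lineage, at 9.02 and 9.86. Igfbp4, which mostly inhibits IGF action until Pappa cuts it, stood highest in fibroblast-like (934 in Con, 479 in SMA) and endothelial-like cells (462 and 277). Microglia-like cells followed at 185 and 162, and the few macrophage-like cells stood at 1071 and 588. Along the oligodendrocyte lineage it fell from 149 (Con) and 140 (SMA) CPM in OPC-like cells to 15.2 and 16.3 in COP-like cells and 9.11 and 9.64 in oligodendrocyte-like cells.

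Igfbp6, a binding protein that prefers IGF2, was found in fibroblast-like cells at 440 CPM in Con (1228 UMIs) and 181 in SMA (106 UMIs). Schwann-like cells came next at 3.49 and 9.09, from 7 and 8 UMIs. Igfbp7, a low-affinity binder deposited in the vessel wall, stood at 3192 in Con and 4590 in SMA in endothelial-like cells and 3058 and 2823 in mural-like cells. Fibroblast-like cells followed at 1047 and 438, and astrocyte-like cells at 82.7 and 49.7. Thinned to 1000 UMIs, 90.7% of mural-like Con cells and 90.3% of SMA cells held a UMI of Igfbp7 (every mural-like cell of both before), against 0.90% and 0.30% of erythroid-like cells.

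For each member, the 3 genes whose log2 levels ran closest to it over the 22 points of 11 classes and 2 libraries were named, among 11531 genes with at least 500 UMIs. Points of 1 library share depth and free RNA, and the coefficients (Pearson r) are descriptions. Igf2 ran with C1qtnf2 (0.997), Colec12 (0.991) and Serping1 (0.968), and Igf1 with Col6a1 (0.985), Col6a2 (0.981) and Mmp23 (0.975). Igf1r ran with Sod1 (0.930), Bsg (0.925) and Nampt (0.919). Igf2r ran with Airn (0.922), the antisense RNA that overlaps it, then with Tns2 (0.903) and Jag1 (0.902). Igfbp2 ran with Fzd2 (0.962), Vcam1 (0.923) and Fmo1 (0.920), Igfbp3 with Cacna1e (0.845), Pdia5 (0.821) and Adamts10 (0.811), and Igfbp4 with Slc29a1 (0.892), Shisa5 (0.867) and H2-M3 (0.867). Igfbp5 ran with Pamr1 (0.960), Clec3b (0.945) and Pgghg (0.935), Igfbp6 with Dpt (0.986), Penk (0.981) and Lum (0.980), and Igfbp7 with Rhod (0.972), Gng11 (0.967) and Ehd2 (0.961). Within the family the closest pair was Igf1 and Igfbp6 (0.942).

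Between the libraries, 55 of the 110 pairs of a member and a class had at least 100 UMIs over both libraries and were compared. A change of at least 2-fold was found in 5 pairs that were lower in SMA and in 2 pairs that were higher. The background over all genes with the same minimum in the same 11 classes was 1.21% of 67183 pairs at least 2-fold lower and 0.853% at least 2-fold higher. Of the 7 pairs, 4 lie in fibroblast-like cells, where the background was itself 12.6% lower and 4.66% higher, 2 in endothelial-like cells (background 0.773% lower and 0.934% higher) and 1 in microglia-like cells (0.292% lower and 0.455% higher). Median log2 ratios were -0.08 over the 55 pairs and between -0.09 and 0.05 over all genes of each class. With the shared SMA barcodes kept, only 2 of these 7 pairs stayed past 2-fold, Igfbp6 (-1.50) and Igfbp7 (-1.01) in fibroblast-like cells. The calls lost were Igfbp5 (-0.96) and Igfbp3 (0.63) in fibroblast-like cells, Igfbp2 (-0.79) and Igfbp3 (0.82) in endothelial-like cells and Igfbp5 (-0.97) in microglia-like cells. The count of higher pairs was 4 with the shared barcodes left out before clustering and 10 with the erythroid-like level subtracted. The plot of ratios gives every compared pair.

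**Figure D2:**
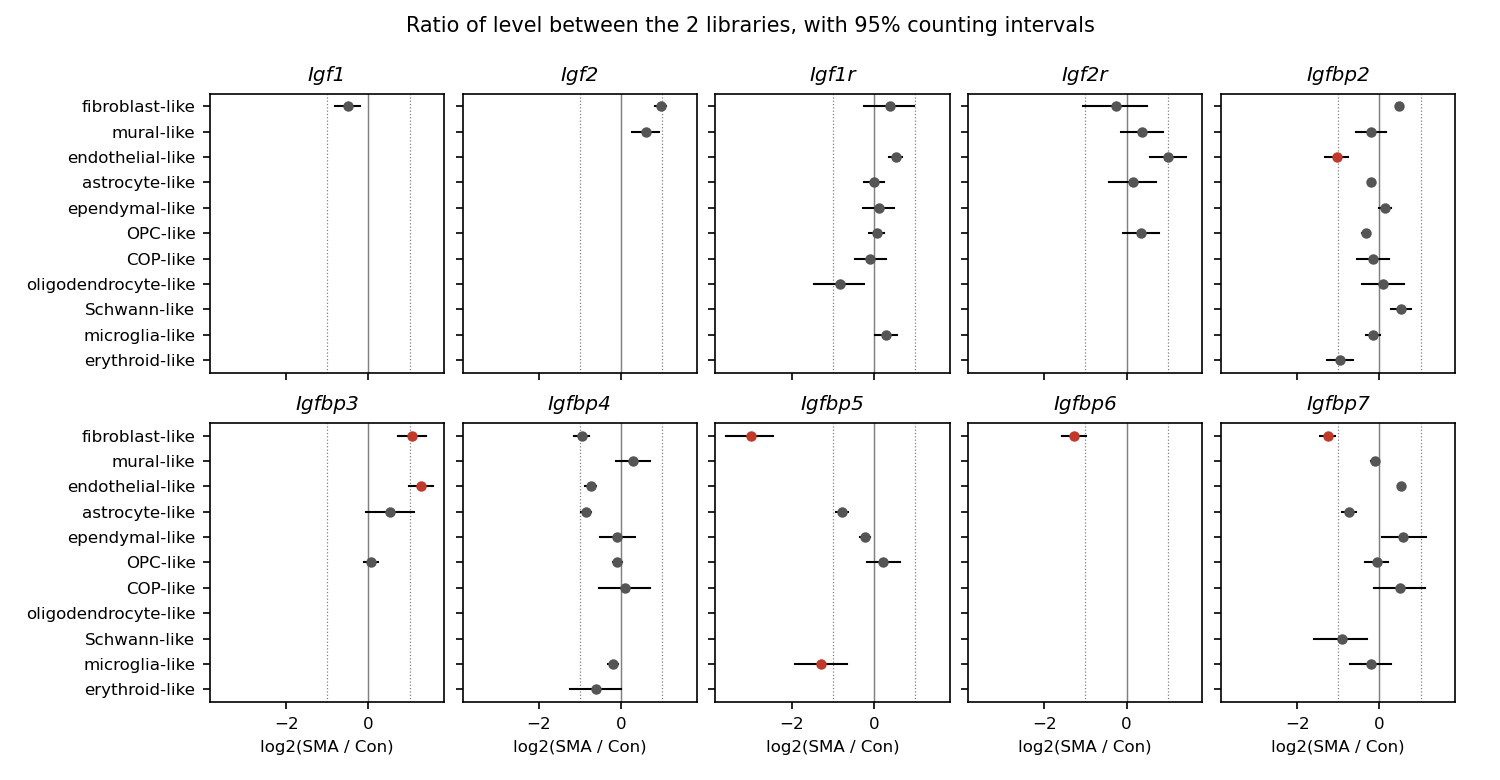
Log2 ratio of the level in the library labelled SMA over that in the library labelled Con (horizontal axis) for each IGF gene (panels) in each class with at least 100 UMIs (vertical axis); lines are 95% counting intervals, dotted lines mark 2-fold, and red points are past 2-fold. The widest departure is Igfbp5 in fibroblast-like cells, at -2.99.

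In endothelial-like cells Igfbp2 was past 2-fold lower and Igfbp3 past 2-fold higher in SMA. Igf1r, Igf2r and Igfbp7 had ratios above 0 and Igfbp4 one below 0, all inside 2-fold with intervals clear of 0. Igfbp7 stood at 3192 CPM in Con and 4590 in SMA, a log2 ratio of 0.52 (0.49 to 0.56). Igf1r stood at 184 and 267, a ratio of 0.54 (0.38 to 0.69), and Igf2r at 21.2 (78 UMIs) and 42.2 (104 UMIs), a ratio of 0.99 (0.56 to 1.44) that lay just inside 2-fold. After thinning to 1000 UMIs, 22.6% of SMA cells (18.2% to 27.6%) and 15.9% of Con cells (12.6% to 19.6%) held a UMI of Igf1r, against 73.7% and 64.0% before thinning, and these intervals overlap. For Igf2r the thinned shares were 4.15% (2.36% to 7.08%) and 2.09% (0.91% to 3.74%), with overlapping intervals, and 23.9% and 15.2% before. Erythroid-like cells, thinned likewise, were at 0.17% in SMA and 0.31% in Con for Igf1r and at 0.21% and 0.025% for Igf2r. Igfbp4 stood at 462 in Con and 277 in SMA, a ratio of -0.74 (-0.87 to -0.61), and Igfbp2 at 120.5 (444 UMIs) and 58.8 (145 UMIs), a ratio of -1.04 (-1.32 to -0.76). The erythroid-like level of Igfbp2 differed in the same direction, 52.4 and 26.9, and the 10 erythroid markers summed to 37525 CPM in endothelial-like Con cells and 11785 in SMA cells. The part of free RNA in this ratio was not tested, and with the erythroid-like level subtracted the ratio was -1.09.

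The endothelial-like class holds 2 clusters. The larger, led by Slc38a5 and Cldn5, and the smaller, led by Gja4 and Sox17, which are genes of arterial endothelium, both had ratios above 0 for Igf1r and Igfbp7 and below 0 for Igfbp4, with intervals clear of 0. Igfbp2 was inside 2-fold in the larger, at -0.88 (-1.18 to -0.59), and past it in the smaller, at -2.03 (-2.96 to -1.20, from 82 UMIs in Con and 14 in SMA). Igfbp3, a pair past 2-fold for the class at 41.0 in Con (151 UMIs) and 99.3 in SMA (245 UMIs), differed between them. In the Gja4 cluster it stood at 136 CPM in 80 Con cells and 473 in 54 SMA cells, a ratio of 1.80 (1.41 to 2.21), and 47 of the 54 SMA cells and 36 of the 80 Con cells held it. In the Slc38a5 cluster it stood at 24.0 and 29.4, a ratio of 0.29 (-0.22 to 0.80). In that cluster 75 UMIs of Con came from only 15 of 373 cells, with 31 in 1 cell, and 61 UMIs of SMA from 44 of 273 cells.

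**Figure D3:**
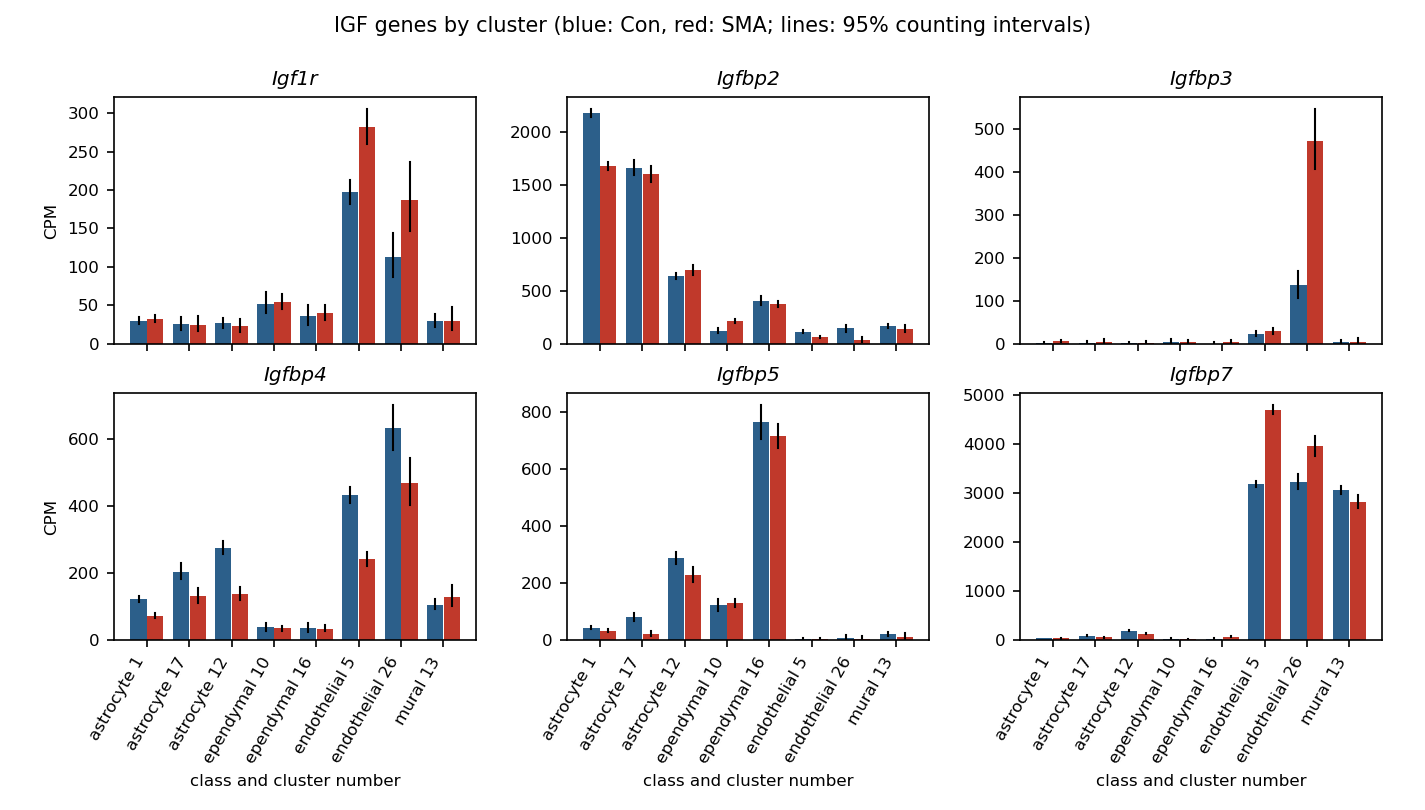
Level in CPM (vertical axis) of 6 IGF genes in clusters of astrocyte-like, ependymal-like, endothelial-like and mural-like cells (horizontal axis, with cluster numbers), in Con (blue) and SMA (red), with 95% counting intervals. Igfbp3 in endothelial cluster 26, the Gja4 cluster, stands at 136 in Con and 473 in SMA, and Igfbp4 is lower in SMA in astrocyte clusters 1, 17 and 12.

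In astrocyte-like cells 4 binding proteins had ratios below 0 with intervals clear of 0, none past 2-fold. Igfbp4 stood at 170 CPM in Con (1854 UMIs) and 94.7 in SMA (815 UMIs), a log2 ratio of -0.85 (-0.97 to -0.73). Igfbp5 had a ratio of -0.77 (-0.92 to -0.62) and Igfbp7 one of -0.73 (-0.90 to -0.57), while Igfbp2 had one of -0.20 (-0.23 to -0.17). The median gene of the class stood at -0.07. The 10 erythroid markers summed to 7339 CPM in astrocyte-like Con cells and 1877 in SMA cells, and their part in these ratios was not tested. Igfbp2 was lower in the largest cluster (-0.38, -0.42 to -0.34) and not in the cluster led by Gfap (0.12, 0.01 to 0.24). Igfbp5 stood at -0.42 in the largest cluster and -0.33 in the Gfap cluster, and Igfbp7 at -0.42 and -0.55, each closer to 0 than the class value. The Gfap cluster, the richest in Igfbp5, held 170 of the 1362 SMA cells and 288 of the 1675 Con cells. In the dividing cluster led by Pbk, Igfbp5 stood at 79.3 in Con (110 UMIs) and 21.1 in SMA (23 UMIs), a ratio of -1.91 (-2.63 to -1.25). In the cluster led by Gfap, Igfbp4 stood at 275 in Con and 138 in SMA, a ratio of -0.99, in the Pbk cluster at 203 and 130, and in the largest at 123 and 72.7. The remaining clusters, of 106 and 54 SMA cells, had ratios of -0.07 and -0.14, with intervals that span 0. Thinned to 1000 UMIs, 7.94% of SMA cells (6.56% to 9.51%) and 13.7% of Con cells (12.01% to 15.4%) held a UMI of Igfbp4 (35.0% and 51.5% before), against 0.85% and 1.43% of erythroid-like cells. Igf1r did not follow, at 30.9 in Con and 31.0 in SMA, a ratio of 0.01 (-0.23 to 0.24).

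In OPC-like and COP-like cells no member was past 2-fold. OPC-like cells had 7 compared members with ratios between -0.32 (Igfbp2, 170 in Con and 136 in SMA) and 0.35 (Igf2r, 7.46 and 9.53, interval -0.08 to 0.79), and Igfbp2 alone had an interval clear of 0 (-0.42 to -0.22). In the OPC-like cluster led by histone genes and Top2a, Igfbp2 stood at 220.1 in Con and 124 in SMA, a ratio of -0.83 (-1.10 to -0.56). COP-like cells had 4 compared members, all with intervals that span 0. In oligodendrocyte-like cells Igf1r stood at 43.5 in Con (86 UMIs) and 24.5 in SMA (33 UMIs), a ratio of -0.83 (-1.46 to -0.24). In the larger cluster, which held 82 of the 86 Con and 29 of the 33 SMA UMIs, its ratio was -0.51 (-1.18 to 0.11). Igfbp2, the other compared member there, had a class ratio of 0.09 (-0.43 to 0.61) and one of -1.36 (-2.44 to -0.41), from 56 UMIs in Con and 11 in SMA, in that cluster. Igfbp7 was under the minimum, with 11 UMIs in Con (5.57) and 48 in SMA (35.6), and 27 of the 48 came from 1 cell. Ependymal-like cells held Igfbp5 at a ratio of -0.21 (-0.34 to -0.08) and Igfbp2 at 0.14 (-0.02 to 0.29). Within the clusters the Igfbp5 intervals span 0, at -0.10 (-0.24 to 0.04) in the Ecrg4 cluster and 0.07 (-0.23 to 0.38) in the ciliary cluster. Igfbp2 stood at -0.12 (-0.31 to 0.08) in the former and 0.78 (0.50 to 1.06) in the latter. In the Ecrg4 cluster, Igfbp7 stood at 17.4 in Con (15 UMIs) and 61.4 in SMA (97 UMIs), a ratio of 1.82 (1.03 to 2.71). In the ciliary cluster it stood at 23.4 (25 UMIs) and 11.8 (30 UMIs), a ratio of -0.98 (-1.80 to -0.16), while the class value was 0.58 (0.05 to 1.13), at 20.7 and 30.9. Schwann-like cells had Igfbp2 at 179 and 257, a ratio of 0.52 (0.27 to 0.76), and Igfbp7 at 57.9 (116 UMIs) and 30.7 (27 UMIs), a ratio of -0.92 (-1.58 to -0.30). In that class erythroid markers summed to 29466 CPM in Con and 581 in SMA, endothelial markers to 106 and 51.1 and mural markers to 139 and 223, and their part was not tested. Mural-like cells had Igfbp7 at a ratio of -0.12 (-0.20 to -0.03).

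Microglia-like cells had 5 compared members. Igfbp5 was the pair past 2-fold, at 10.4 CPM in Con (68 UMIs in 40 cells) and 4.30 in SMA (34 UMIs in 29 cells), a ratio of -1.27 (-1.91 to -0.66). Of the 68 Con UMIs, 26 came from the 64 cells of a sub-cluster led by the astrocyte genes Aqp4 and Plpp3, where SMA held 7 UMIs in 64 cells. A further 17 came from 8 cells of a sub-cluster led by the ependymal genes Ecrg4 and Rsph1, where SMA held 9 UMIs in 15 cells. Astrocyte markers, all 12 of 12 detected, summed to 626 CPM over microglia-like Con cells and 658 over SMA cells, and their part in the ratio was not tested. Igf1r stood at 29.6 in Con and 36.4 in SMA, a ratio of 0.30 (0.03 to 0.57), and Igfbp4 at 185 and 162, a ratio of -0.19 (-0.31 to -0.08).

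Fibroblast-like cells held 4 of the 7 pairs, and their make-up differed between the libraries. Clustering split the 600 Con cells into 429 cells of 3 sub-clusters that held no cell of the library labelled SMA and 171 other cells, while all 63 SMA cells fell among the others. The 3 sub-clusters are led by Cd55 and Pcolce2, by Serpinb2 and Cxcl5, and by C1qtnf3 and Actg2. Only 4 of the 429 cells (0.93%) have a barcode that both libraries list, against 157 of the 171 (91.8%). Their median depth was 2804 UMIs against 8438, their median mitochondrial share 2.07% against 6.29%, and Xist stood at 302 CPM against 71.1. The part of these differences in the class values was not tested, and the fibroblast ratios below are given with and without the 429 cells.

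These Con cells without an SMA counterpart had another IGF programme. Igf2 had 0 UMIs in the 429 cells, at their median of 2804 UMIs, and 1510 UMIs in the 171 others, 1043 CPM. As cells with a UMI, the floor of 3 counts is 3 of 429 (0.699%), a set floor and not a two-sided limit. Against this floor over the 429 cells, the level in the 171 others was 467-fold higher. The two-sided interval of the log2 ratio is wider and begins at 8.57, so it also allows a smaller fold. Igfbp2 had 14 UMIs against 7569, or 10.4 and 5226 CPM, a 501-fold difference. Igfbp6 ran the other way at 844 against 65.6, 12.9-fold higher in the 429 cells, as did Igfbp3 at 147 against 26.9 and Igfbp7 at 1419 against 701. Igfbp4 stood at 940 and 929. Igf1 was lower in the 429 cells, at 141 against 380, and Igfbp5 at 220 against 532. The sub-clusters were made without the members, but from these same cells and with 1 library a group, so these contrasts are descriptions.

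The 3 sub-clusters differed among themselves. Igfbp6 stood at 1906 CPM in the Cd55 sub-cluster (169 cells), 436 in the Serpinb2 sub-cluster (153 cells) and 547 in the C1qtnf3 sub-cluster (107 cells). Igfbp5 stood at 797, 24.9 and 3.22 in the same order, Igfbp7 at 1258, 808 and 2944, and Igf1 at 155, 27.8 and 373. Igfbp5 was thus highest in the Cd55 cells and Igfbp7 in the C1qtnf3 cells of these 3, but Igfbp5 also stood at 604 in the Wif1 Con cells. Among the other cells, a sub-cluster led by Wif1, Dlk1 and Notum held 133 Con and 34 SMA cells. A sub-cluster led by Ptgds, Dapl1 and Msln held 16 SMA cells and 2 Con cells, and stood at 1127 for Igf2, 539 for Igfbp3 and 581 for Igfbp6 in SMA. Its 2 Con cells stood higher for Igfbp3 (908, 21 UMIs in 1 cell) and Igfbp6 (2854, 66 UMIs). The 97 Igfbp6 UMIs of those 16 cells came from 6 cells, 38 of them from 1.

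**Figure D4:**
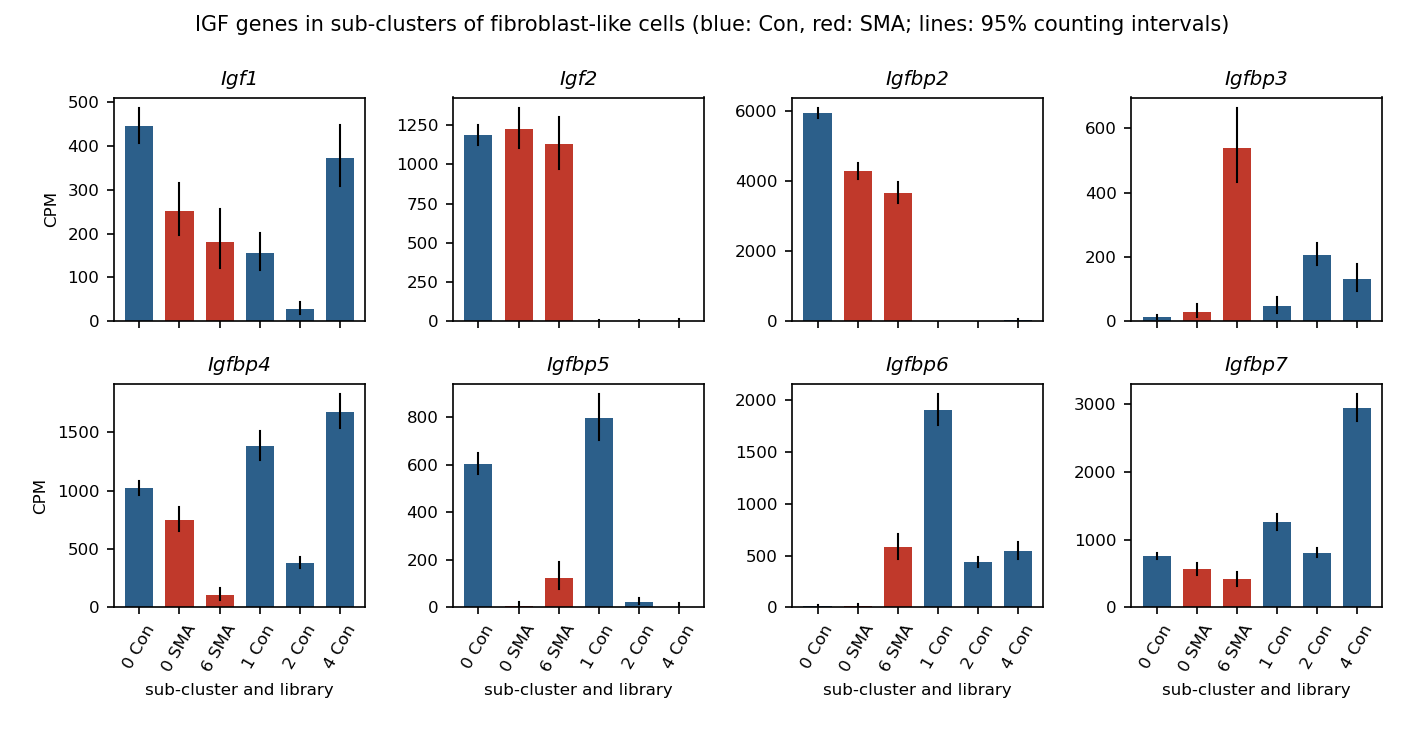
Level in CPM (vertical axis) of 8 IGF genes in sub-clusters of fibroblast-like cells by library (horizontal axis; 0, led by Wif1; 6, led by Ptgds; 1, led by Cd55; 2, led by Serpinb2; 4, led by C1qtnf3), Con in blue and SMA in red, with 95% counting intervals. Igf2 stands at 1188 and 1225 in sub-cluster 0 of the libraries and at 0 in sub-clusters 1, 2 and 4, which hold Con cells only.

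Over all fibroblast-like cells, Igf2 stood at 541 CPM in Con and 1056 in SMA, a log2 ratio of 0.96 (0.83 to 1.10). Without the 429 Con cells it stood at 1043 in Con and 1056 in SMA, a ratio of 0.02 (-0.12 to 0.15), and in the Wif1 sub-cluster at 1188 and 1225. Igfbp2 turned from 0.48 over all cells to -0.46 (-0.53 to -0.40) without them, at 5226 and 3787. Most of these cells held a UMI of each, 157 of the 171 Con cells and 59 of the 63 SMA cells. Igf1 was at a ratio of -0.51 (-0.81 to -0.21) over all cells and -1.03 (-1.34 to -0.73) without the 429, at 380 in Con (550 UMIs) and 187 in SMA (109 UMIs). In the Wif1 sub-cluster it was inside 2-fold, at 446 and 250.5, a ratio of -0.83 (-1.20 to -0.48). Igf1r and Igf2r fell under 100 UMIs without the 429 cells, with ratios of 0.93 (0.19 to 1.66) and -0.19 (-1.06 to 0.61), against 0.38 (-0.25 to 0.98) and -0.25 (-1.06 to 0.49) over all cells.

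Of the 4 fibroblast pairs past 2-fold, Igfbp5 and Igfbp3 stayed past 2-fold in the same direction without the 429 cells, Igfbp7 fell inside 2-fold, and Igfbp6 turned. Among the 8 members with 100 UMIs in this reduced set, 2 were at least 2-fold lower (Igf1 and Igfbp5) and 2 at least 2-fold higher (Igfbp3 and Igfbp6), against 5.26% and 2.78% of 2702 genes. Igfbp5 stood at 532 in Con (770 UMIs) and 47.9 in SMA (28 UMIs), a ratio of -3.47 (-4.07 to -2.93). With the shared SMA barcodes kept, its ratio over all fibroblast-like cells was -0.96 in place of -2.99. In the Wif1 sub-cluster 77 of 133 Con cells held Igfbp5, with 685 UMIs, and 2 of 34 SMA cells, with 1 UMI each. Igfbp3 stood at 84.9 (237 UMIs) and 178 (104 UMIs) over all cells, a ratio of 1.07 (0.72 to 1.41). Without the 429 it stood at 26.9 in Con (39 UMIs), a ratio of 2.72 (2.18 to 3.29), and 90 of the 104 SMA UMIs lay in the 16 cells of the Ptgds sub-cluster. Of the 39 Con UMIs, 21 lay in 1 cell of that sub-cluster. In the Wif1 sub-cluster Igfbp3 stood at 12.4 in Con (14 UMIs) and 27.1 in SMA (8 UMIs).

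Igfbp6 stood at 65.6 in Con (95 UMIs) and 181 in SMA (106 UMIs) without the 429 cells, a ratio of 1.47 (1.05 to 1.88) that is opposite to the -1.28 over all cells, and 97 of the 106 SMA UMIs and 66 of the 95 Con UMIs lay in the 16 SMA and 2 Con cells of the Ptgds sub-cluster. Igfbp7 stood at 701 and 438, a ratio of -0.68 (-0.88 to -0.48), against -1.26 over all cells. Igfbp4 was at -0.96 (-1.15 to -0.79) over all cells and -0.96 (-1.15 to -0.77) without the 429. In the Wif1 sub-cluster the ratios were closer to 0, at -0.44 (-0.66 to -0.23) for Igfbp4 and -0.43 (-0.68 to -0.19) for Igfbp7, and Igfbp4 stood at 108 in the Ptgds SMA cells against 752 in the Wif1 SMA cells. The 12 fibroblast markers, all detected, summed to 27092 CPM in the 171 Con cells and 13027 in the 63 SMA cells. Over the whole class, astrocyte markers summed to 2036 in SMA and 815 in Con, endothelial markers to 229 and 976, and erythroid markers to 534 and 19837, and the part of these gaps in the ratios was not tested.

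The 24 further genes of the pathway (insulin receptor and adaptors, other carriers, proteases of the binding proteins, binders of Igf2 mRNA, the RNA H19, and the kinase cascade) gave 87 compared pairs. None was at least 2-fold lower in SMA, and 1 was at least 2-fold higher, against the same background of 1.21% and 0.853%. That pair was H19, the maternally expressed imprinted RNA beside Igf2, in fibroblast-like cells, at 237 CPM in Con (662 UMIs) and 484 in SMA (283 UMIs), a ratio of 1.03 (0.82 to 1.23). Like Igf2, it was lower in the 429 Con cells (56.6) than in the 171 others (405), and without the former its ratio was 0.26 (0.05 to 0.47). Of the 283 SMA UMIs, 189 lay in the 16 cells of the Ptgds sub-cluster, 48 of them in 1 cell. In the Wif1 sub-cluster the direction turned, at 477 in Con and 284 in SMA, a ratio of -0.75 (-1.10 to -0.41). Pik3r1, a regulatory subunit of phosphoinositide 3-kinase, was the only one of the 24 to reach 100 UMIs in all 11 classes. The carriers Igfbp1, Igfbpl1 and Igfals, the proteases Pappa and Pappa2, and the protease inhibitors Stc1 and Stc2 reached it in none. Htra1, a protease that can cut IGF-binding proteins, of astrocyte-like cells stood at 366 in Con and 508 in SMA, with a ratio of 0.47 (0.41 to 0.54). In endothelial-like cells it went the other way, at 157 in Con and 99.7 in SMA, a ratio of -0.66 (-0.88 to -0.44). Foxo3, a transcription factor held in the cytoplasm when the pathway is active, had 19.5 CPM in Con and 35.2 in SMA among astrocyte-like cells, and its ratio was 0.85 (0.60 to 1.11).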

How the data were processed

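The deposited files hold UMI counts per gene and barcode for 1 library labelled SMA and 1 labelled Con. Per the file headers the authors made these counts with Cell Ranger 4.0.0, and the submitters' processing notes name Seurat 3.2.2 and build mm10, the same assembly as GRCm38. Whether introns or strand entered the counting is not given in the sources used here.

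From 26921 SMA and 25419 Con barcodes, those with 200 to 4000 genes and under 10% mitochondrial UMIs were kept. Clusters of a first round with a median ribosomal share over 30% were then removed whole. This took out 1336 Con barcodes and no SMA barcode. No further doublet removal was made. The members, the pathway genes, mitochondrially encoded and ribosomal protein genes, Smn1, Xist, Tsix and the Y-linked genes named above were left out of all clustering. After log-transformation of values scaled to 10000 per cell, 2000 variable genes and 30 principal components gave a graph of 20 neighbours, and Louvain clustering (resolution 1) gave 34 clusters, using Python 3.11.15, scanpy 1.11.5 and python-igraph 0.11.9. Clusters were named "-like" from 17 marker lists, and 2 of the clusters stayed unnamed. Shared barcodes of the library labelled SMA were then left out, which leaves 6787 cells. UMIs were summed per class and library (45630633 in SMA and 59382706 in Con), and intervals are exact Poisson (levels), Clopper-Pearson (shares) and conditional binomial (ratios), all two-sided at 95% (scipy 1.17.1). Ratios needed 100 UMIs over both libraries, and a group at 0 was set to a floor of 3 counts. The interval was tested on simulated data. UMIs are molecules of pooled animals, so the intervals leave out all variation between animals.

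All 10 members are named, the 24 pathway genes are given as counts with values for those past 2-fold, plus 3 genes (Pik3r1, Htra1 and Foxo3) chosen after their values were seen, and 3 like genes are given per member. The members, the lists and the tests were chosen with earlier results of these data known.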

Additional observations from a re-analysis of the deposited data

Results flagged for a closer look

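The 1336 Con barcodes removed with clusters of a high median ribosomal share entered no comparison and held UMIs of some members. As a share of UMIs, 6 members stood above erythroid-like Con cells, 4 of them beyond counting error: Igf2 at 8.24 CPM (9 UMIs, against 1.10), Igf1r at 10.1 (11 UMIs, against 3.31), Igfbp5 at 10.1 (11 UMIs, against 2.65) and Igfbp6 at 7.32 (8 UMIs, against 0.11). The order depends on the denominator, since these barcodes averaged 818 UMIs and erythroid-like Con cells 9409, of which the 10 erythroid markers took 868320 CPM. Per 1000 barcodes or cells, Igf2 was lower (6.74 UMIs against 10.4), as were Igf1r (8.23 against 31.2) and Igfbp5 (8.23 against 24.9), and only Igfbp6 was above on both scales (5.99 against 1.04). Igfbp4 (18.3 against 11.9) and Igfbp7 (12.8 against 7.51) had intervals that span 0. Igfbp2 was lower in CPM as well, at 12.8 against 52.4. No groups of 4 or more libraries exist in which a library could stand apart.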

How the results depend on the processing

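Ratios and both counts of pairs past 2-fold (5 lower, 2 higher) were recomputed under 12 settings, and the counts under 3 further UMI minimums; no library could be left out. No paired analysis was possible because each group is 1 library. The settings with only the largest cluster of a class that has 50 cells in each library (for fibroblast-like cells the smaller of 2 clusters, with 61 SMA and 167 Con cells) and with the erythroid-like level subtracted were chosen after seeing the data. The Igf1 ratio in microglia-like cells stayed between 0.34 and 0.77 and within its interval. The Igf2 ratio in fibroblast-like cells (0.96) became 0.018 without the Con-only sub-clusters, 0.021 with only Con cells of a shared barcode, -0.039 in the largest cluster, 0.43 in cells of at least 5000 UMIs and 1.83 with every cell weighted equally. Under the first 4 of these the Igfbp6 ratio there (-1.28) became 1.47, 1.32, 1.25 and 0.25. In each, fewer Con-only cells remain. The Igfbp2 ratio in astrocyte-like cells (-0.20) became -0.11 in cells of at least 5000 UMIs, -0.29 with equal weight, -0.13 when centred on the median gene and -0.38 in the largest cluster; the cause was not tested. The count of lower pairs became 2 with the shared SMA barcodes kept, 3 in deep cells, 3 with shared Con barcodes only, 3 in the largest cluster and 11 with no UMI minimum. The count of higher pairs became 1 with shared SMA barcodes kept, 4 with them left out before clustering, 10 with the erythroid-like level subtracted, and 11 with no UMI minimum. Of the 7 called pairs, the 6 other than Igfbp6 kept their direction in all settings run, but not all stayed past 2-fold. In endothelial-like cells Igfbp2 and Igfbp3 were each past it in 8 of 11 settings, and in microglia-like cells Igfbp5 in 10 of 11. In fibroblast-like cells it was 11 of 12 for Igfbp5, 10 for Igfbp3 and 8 for Igfbp7. With every cell weighted equally 5 of the 7 stayed past 2-fold, and with a mitochondrial limit of 20% it was 6. In endothelial-like cells Igfbp2 ranged from -1.17 to -0.77 and Igfbp3 from 0.29 to 2.02, in microglia-like cells Igfbp5 from -1.81 to -0.97, and in fibroblast-like cells Igfbp5 from -3.95 to -0.96, Igfbp3 from 0.49 to 2.77 and Igfbp7 from -1.44 to -0.68. Few UMIs of Igf1 and Igfbp6 were counted outside fibroblast-like cells, which limits what can be said there.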

Other observations

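Cells that received no class name held members as well. In the cluster with genes of erythroid and oligodendrocyte cells (348 Con and 105 SMA cells), Igfbp2 stood at 593 CPM in Con and 321 in SMA, and Igfbp7 at 87.6 and 40.2. In the other unnamed cluster (245 Con and 132 SMA cells), Igfbp4 stood at 213 and 159. Microglia markers were 4 of its 60 leading genes, but its 10 leading genes held none of them and held the B cell marker Ighm. The few neuron-like cells held Igf1r at 41.7 CPM in the 26 Con cells and 46.3 in the 43 SMA cells, and Igfbp5 at the same levels, 41.7 and 46.3. Igf2 stood there at 26.6 and 10.3, from 7 and 4 UMIs, and Igf1 had 0 UMIs in both libraries.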
